A study of Mus musculus with 28 samples.

Results

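The genes described here belong to the pathway that runs from leukaemia inhibitory factor (LIF) through the shared receptor chain gp130 to the transcription factor STAT3. They are Lif, Lifr, Cntf, Clcf1, Il6st, Osmr, Jak2, Stat3, Socs3 and Cebpd, followed across mouse retinas after optic nerve injury. They were picked by symbol from a table of normalized counts with 35973 usable genes, and all 10 were found in it. All 10 also had a mean normalized count of at least 10, the minimum for entering the test across genes. The samples were polyadenylated RNA of whole retina from mice whose right optic nerve was crushed (ONC) and whose left nerve was spared (CTRL), so that the control was the other eye of the same injured animal and side and crush were one factor. Daily intraperitoneal injections over 7 days gave each mouse either vehicle alone or RGFP966 at 10 mg/kg, a compound that inhibits histone deacetylase HDAC3, and both retinas were taken 7 days after the crush. Vehicle mice numbered 6 (2 females and 4 males) and RGFP966 mice 7 (3 females and 4 males), which gave 26 libraries in 4 groups: vehicle CTRL (n = 6), vehicle ONC (n = 6), RGFP966 CTRL (n = 7) and RGFP966 ONC (n = 7). No group of uninjured mice was used, and the labels name no strain, age, vehicle composition or sequencing batch.

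Normalized counts summed to between 17700000 and 21900000 per library (median 18700000), from an estimated 16100000 to 24700000 reads. The tissue label held: the summed level of 6 rod photoreceptor markers was at least 1045790 in each of the 26 libraries. Of 7 markers of retinal ganglion cells 6 fell after crush in both treatments, the cell type whose axons the crush severs. In 2 uncrushed libraries, vehicle CTRL female A and RGFP966 CTRL male A, the summed level of 4 lens markers was 7682 and 41603, against 11.6 to 1394 in the other libraries. The description of RGFP966 CTRL female A speaks of a crush, but its title and condition make it an uncrushed eye, and it was grouped by these. Because whole retina was sequenced, a change in the number of cells of a type and a change in RNA per cell cannot be told apart.

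LIF, ciliary neurotrophic factor (CNTF, gene Cntf) and cardiotrophin-like cytokine factor 1 (gene Clcf1) belong to the interleukin 6 family of cytokines. They signal through receptor complexes that contain gp130 (gene Il6st) and the LIF receptor chain (gene Lifr), while oncostatin M acts through gp130 with its own receptor chain (gene Osmr). Janus kinases such as JAK2 bound to these chains then phosphorylate STAT3, which enters the nucleus as a dimer, switches on genes such as Socs3 and Cebpd, and is shut off again when the SOCS3 protein binds gp130 and the kinases. In the mouse retina, LIF made by Müller glia is known for its part in the protection of injured photoreceptors. CNTF is known for promoting survival and axon regrowth of ganglion cells, and loss of Socs3 in these cells lets their axons regrow after a crush. The measurements here are transcript levels and say nothing of phosphorylated STAT3.

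STAT dimers bind DNA at the palindrome TTCNNNGAA, which reads the same on both strands. This motif was searched in the 250 bases before each RefSeq gene start (build GRCm38.p6). Windows were found for 8 of the 10 genes (9 windows in all, not for Clcf1 and Cebpd), and 1 of the 9 held the motif, that of Socs3. Of all 32851 promoter windows, 7.02% held it. The Socs3 stretch is shown because Socs3 is the textbook STAT3 target of the set. It lies at chr11:117969472-117969560 on the minus strand, inside the annotated Socs3 gene but over no annotated exon, and its motif, in capitals, spans bases 154 to 146 before the RefSeq start.
Socs3: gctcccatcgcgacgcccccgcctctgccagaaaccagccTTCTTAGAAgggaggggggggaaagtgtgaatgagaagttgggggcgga
The match describes these letters only. Binding was not measured.

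Transcripts of ligand, receptor, transcription factor and target genes were higher after crush, but not those of every gene. In vehicle mice 6 of the 10 genes rose: the ligand Cntf, the receptor chains Il6st and Osmr, Stat3 itself, and its targets Socs3 and Cebpd. The same 6 genes rose in RGFP966 mice, and none of the 10 fell in either treatment. A rise means an adjusted p under 0.05 in limma's moderated test over 15773 genes. By that rule 3.69% of all tested genes rose in vehicle mice and 3.34% in RGFP966 mice. Of all 842 genes called in vehicle mice 582 rose, and of all 737 called in RGFP966 mice 527 did. Falls were thus rarer than rises among the 15773 genes, and their absence does not set the 10 genes apart. The median log2 change of the 10 genes was 0.94 in vehicle mice and 0.996 in RGFP966 mice, against -0.01 over all tested genes in both. The 10 genes were chosen with earlier results of these data known. Setting them beside all tested genes, here and below, is therefore a description and no independent evidence. In vehicle mice 5 of the genes (Cntf, Il6st, Osmr, Stat3 and Cebpd) had every crushed retina above every uncrushed one, as did 2.42% of all genes. In RGFP966 mice 4 did (Il6st, Osmr, Stat3 and Cebpd), as did 1.56% of all genes. Over all 26 libraries, without regard to treatment, Osmr, Stat3 and Cebpd still separated crushed from uncrushed retinas without overlap, as did 0.989% of all genes.

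**Figure D1:**
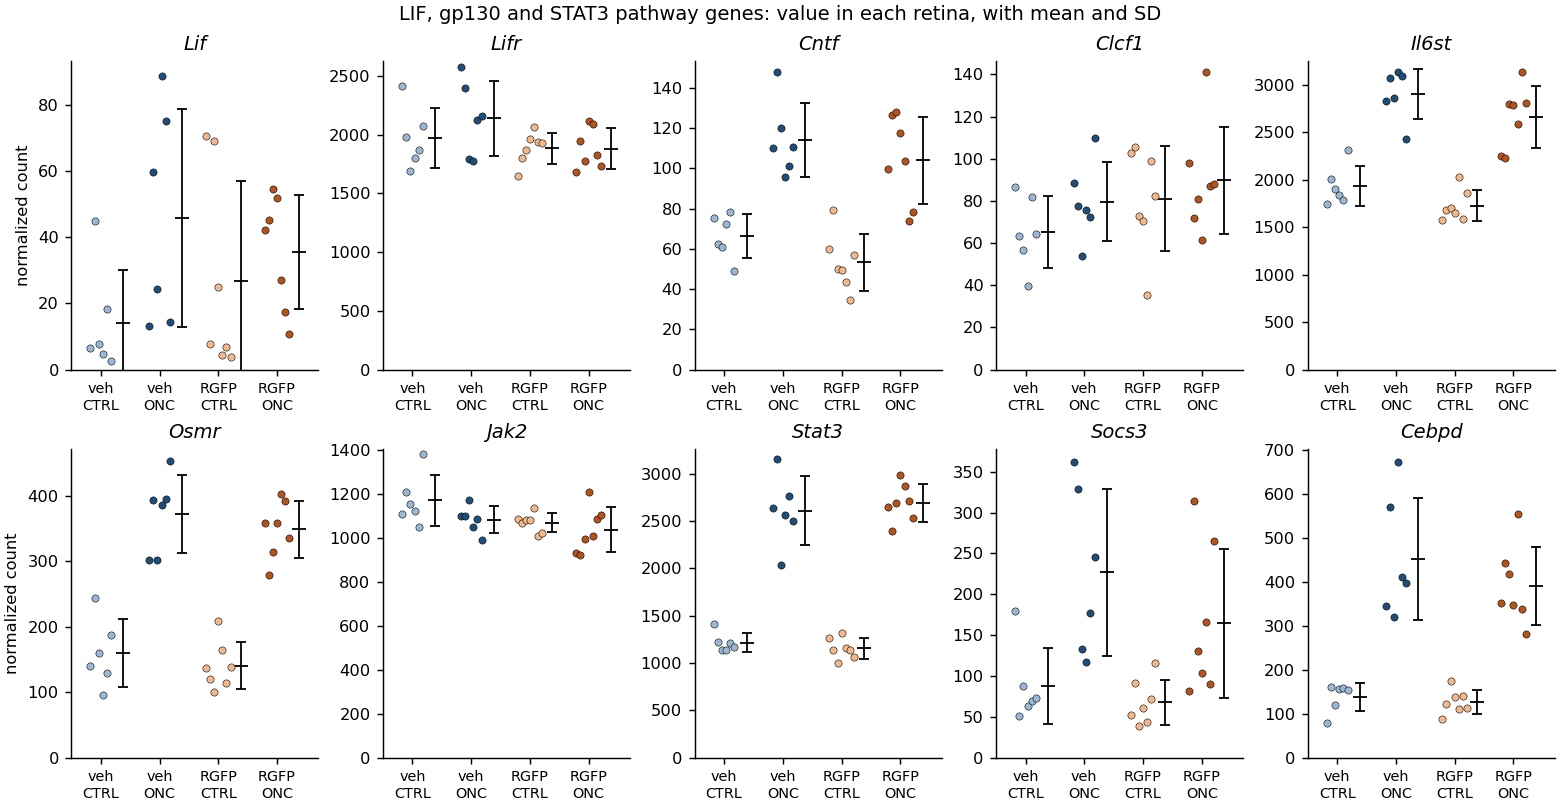
Normalized count (vertical axis, linear, from 0) of each of the 10 genes in each of the 26 retinas, by group; veh is vehicle and RGFP is RGFP966, points are single retinas, and the bar beside them is the mean with its SD (lower arms that would pass below 0 end at the axis). Osmr, Stat3 and Cebpd show crushed retinas wholly above uncrushed ones, Jak2 and Lifr lie at similar levels in all groups, and Lif is scattered in every group.

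Among the ligands, Lif was the least abundant and the most scattered. Its normalized count in vehicle mice ran from 2.71 to 44.9 (median 7.02) in uncrushed retinas and from 13.2 to 88.5 (median 42.0) in crushed ones. In RGFP966 mice it ran from 3.79 to 70.6 (median 7.66) in uncrushed and from 10.8 to 54.5 (median 42.1) in crushed retinas. The groups overlapped in both treatments, and RGFP966 CTRL female A and female C, at 70.6 and 68.9, exceeded every crushed retina of their treatment. The log2 change with crush was 1.81 ± 0.63 (SE) in vehicle mice and did not pass the threshold (limma adjusted p = 0.107). With the mouse as a fixed term, which compares the eyes of each animal, the same change did pass (limma adjusted p = 0.0239). It also passed without vehicle ONC female A, the lowest crushed value of its treatment, where the change was 2.26 (limma adjusted p = 0.0331). With any other single library left out it did not pass. The highest limma adjusted p was then 0.260, without vehicle ONC male B, where the change was 1.47. Without the 2 libraries rich in lens transcripts it was 0.227. In RGFP966 mice the log2 change was 1.03 ± 0.59 with an adjusted p of 0.441, and it was 0.231 with the mouse as a fixed term. Without RGFP966 CTRL female A, the library with the conflicting description, that change was 1.32 (adjusted p = 0.285), and of the 6 genes that rose in RGFP966 mice 5 still passed, Socs3 being the exception. The crushed eye had the higher Lif value in 6 of 6 vehicle mice and in 5 of 7 RGFP966 mice.

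Cntf rose after crush in both treatments. Its values in vehicle mice ran from 48.9 to 78.3 (median 67.3) in uncrushed and from 95.6 to 148 (median 110) in crushed retinas. In RGFP966 mice they ran from 34.7 to 79.5 (median 50.2) and from 73.8 to 128 (median 104). The groups were apart in vehicle mice, whereas in RGFP966 mice 1 uncrushed retina, female B at 79.5, lay above 2 crushed ones. The mean rose from 66.4 ± 11.04 (SD, n = 6) to 114 ± 18.4 (SD, n = 6) in vehicle mice, a 1.71-fold change (log2 0.78 ± 0.16, limma adjusted p = 0.00283). It rose from 53.4 ± 14.2 to 104 ± 21.8 (SD, n = 7 each) in RGFP966 mice, a 1.95-fold change (log2 0.96 ± 0.15, adjusted p = 8.55e-05). Cntf lies at chr19:12763660-12765632 wholly within the gene Zfp91 on the same strand, so that reads could be shared between them. The log2 change of Zfp91 with crush was -0.13 ± 0.06 in vehicle mice (adjusted p = 0.245) and -0.05 ± 0.05 in RGFP966 mice (adjusted p = 0.712).

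Clcf1 ran from 39.6 to 86.6 (median 63.8) in vehicle CTRL and from 54.1 to 110 (median 76.7) in vehicle ONC. With RGFP966 it ran from 35.3 to 106 (median 82.5) in uncrushed and from 61.7 to 141 (median 87.2) in crushed retinas. All 4 groups overlapped, and the crushed eye had the higher value in 7 of 13 mice. The log2 change with crush was 0.29 ± 0.24 in vehicle mice (95% interval -0.19 to 0.78, limma adjusted p = 0.607) and 0.17 ± 0.22 in RGFP966 mice (-0.27 to 0.62, adjusted p = 0.794). Of the ligands, then, Cntf alone passed the threshold in the fit without the mouse term.

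The receptor chains did not move alike. Il6st, which encodes the shared chain gp130, ran from 1744 to 2318 (median 1873) in vehicle CTRL and from 2428 to 3134 (median 2970) in vehicle ONC. Its range with RGFP966 was 1582 to 2032 (median 1678) in uncrushed and 2234 to 3140 (median 2790) in crushed retinas. Crushed and uncrushed retinas did not overlap within either treatment. Il6st rose 1.503-fold in vehicle mice (log2 0.59 ± 0.08, limma adjusted p = 1.92e-05) and 1.53-fold in RGFP966 mice (log2 0.62 ± 0.08, adjusted p = 2.60e-06). It rose least of the 6 genes that passed, and within single mice its crushed-to-uncrushed difference ran from 0.07 to 0.99 on the log2 scale.

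Osmr, the oncostatin M receptor chain, started from a lower level and rose more. It ran from 95.6 to 245 (median 150) in vehicle CTRL and from 302 to 454 (median 390) in vehicle ONC. In RGFP966 mice the range was 101 to 209 (median 137) in uncrushed and 279 to 403 (median 358) in crushed retinas. Each of the 13 crushed retinas exceeded each of the 13 uncrushed ones. The mean went from 160 ± 51.7 to 373 ± 59.2 (SD, n = 6 each) in vehicle mice, a 2.40-fold rise (log2 1.26 ± 0.18, limma adjusted p = 1.62e-05). In RGFP966 mice it went from 141 ± 36.2 to 349 ± 43.2 (SD, n = 7 each), a 2.52-fold rise (log2 1.33 ± 0.16, adjusted p = 2.09e-06).

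Lifr, the chain that LIF itself binds, ran from 1693 to 2413 (median 1923) in vehicle CTRL and from 1772 to 2578 (median 2141) in vehicle ONC. It ran from 1650 to 2061 (median 1925) in RGFP966 CTRL and from 1683 to 2114 (median 1826) in RGFP966 ONC. The 4 groups overlapped throughout. Its log2 change with crush was 0.11 ± 0.09 in vehicle mice (95% interval -0.07 to 0.30, limma adjusted p = 0.607) and -0.01 ± 0.08 in RGFP966 mice (-0.18 to 0.17, adjusted p = 0.988). The upper bounds correspond to 1.23-fold and 1.12-fold, below the fitted rise of Il6st in either treatment.

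Stat3, the transcription factor at the centre of the pathway, had the smallest adjusted p of the 10 genes in both treatments. Its values in vehicle CTRL ran from 1137 to 1413 (median 1187) and in vehicle ONC from 2037 to 3153 (median 2602). In RGFP966 mice they ran from 1002 to 1319 (median 1143) in uncrushed and from 2394 to 2987 (median 2687) in crushed retinas. The highest uncrushed retina of all, 1413, lay well below the lowest crushed one, 2037. The mean went from 1215 ± 103 to 2610 ± 364 (SD, n = 6 each) in vehicle mice, a 2.13-fold rise with a 95% interval of 1.90 to 2.40 (log2 1.09 ± 0.08, limma adjusted p = 6.40e-10). With RGFP966 it went from 1155 ± 108 to 2690 ± 198 (SD, n = 7 each), 2.33-fold with an interval of 2.09 to 2.60 (log2 1.22 ± 0.08, adjusted p = 1.69e-11). Within single mice the crushed eye held 1.78 to 2.68 times the Stat3 level of the other eye (median 2.26), the narrowest span on the log2 scale among the 6 genes that rose.

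Jak2, a kinase that phosphorylates STAT3, ran from 1052 to 1383 (median 1139) in vehicle CTRL and from 991 to 1174 (median 1094) in vehicle ONC. The corresponding ranges with RGFP966 were 1008 to 1137 (median 1083) and 925 to 1211 (median 1012). The groups overlapped, and the crushed eye had the lower value in 8 of 13 mice. The log2 change was -0.11 ± 0.07 in vehicle mice (95% interval -0.25 to 0.03, limma adjusted p = 0.481) and -0.05 ± 0.06 in RGFP966 mice (-0.18 to 0.08, adjusted p = 0.814). When libraries were rescaled to the same total these values became 0.01 and 0.03, so that no direction can be given for Jak2.

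Socs3 encodes the feedback inhibitor of gp130 and its kinases, and its promoter stretch is printed above. It ran from 50.6 to 179 (median 71.3) in vehicle CTRL and from 117 to 361 (median 211) in vehicle ONC. In RGFP966 mice it ran from 38.4 to 116 (median 60.8) in uncrushed and from 82.0 to 314 (median 131) in crushed retinas. The groups overlapped in both treatments, yet the crushed eye was the higher one in 13 of 13 mice, by 1.26 to 6.49 times (median 2.28). Socs3 rose 2.58-fold in vehicle mice (95% interval 1.58 to 4.22, log2 1.37 ± 0.35, limma adjusted p = 0.0143). It rose 2.27-fold in RGFP966 mice (1.44 to 3.59, log2 1.19 ± 0.32, adjusted p = 0.0259). The Socs3 calls rest on few libraries: without vehicle CTRL female C the adjusted p in vehicle mice was 0.0515. In RGFP966 mice it lay between 0.0547 and 0.0794 when any 1 of 6 libraries was left out, namely CTRL female A, CTRL female C, CTRL male B, ONC female B, ONC male B or ONC male D.

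Cebpd encodes C/EBP delta, a transcription factor of the acute-phase response that STAT3 induces. It ran from 78.7 to 161 (median 155) in vehicle CTRL and from 321 to 672 (median 404) in vehicle ONC. With RGFP966 the range was 87.1 to 174 (median 123) in uncrushed and 282 to 554 (median 351) in crushed retinas. Each crushed retina exceeded each uncrushed one, the lowest at 282 and the highest at 174. Cebpd rose 3.24-fold in vehicle mice (log2 1.70 ± 0.20, limma adjusted p = 9.94e-07) and 3.06-fold in RGFP966 mice (log2 1.61 ± 0.18, adjusted p = 6.74e-07). This was the largest fitted rise among the 6 genes that passed. Cebpd overlaps Spidr on the opposite strand and the end of Stat3 overlaps Stat5a likewise. Whether reads were assigned by strand is not stated, so reads from overlapping stretches may have been shared between these genes. The log2 change of Spidr with crush was 0.30 ± 0.15 in vehicle mice (adjusted p = 0.313) and 0.38 ± 0.14 in RGFP966 mice (adjusted p = 0.134).

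**Figure D2:**
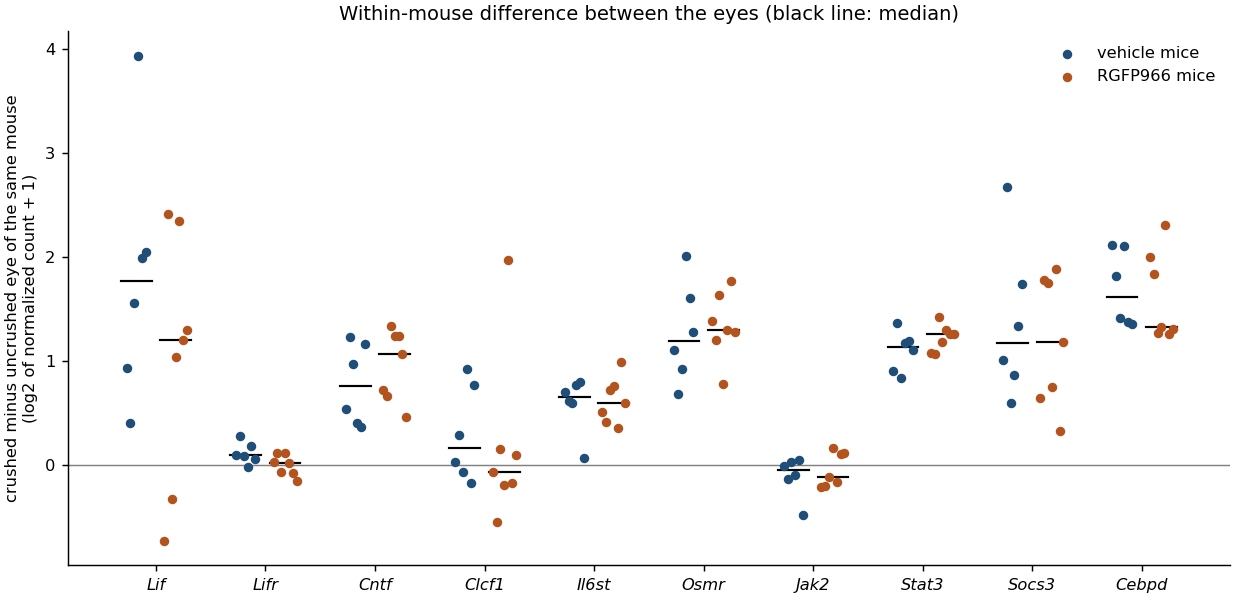
Difference between the crushed and the uncrushed eye of each mouse (vertical axis, log2 of normalized count + 1) for the 10 genes; each point is 1 of 13 mice, blue for vehicle and orange for RGFP966, and black lines are medians. For Cntf, Il6st, Osmr, Stat3, Socs3 and Cebpd all 13 mice lie above 0, while points of Lifr, Clcf1 and Jak2 lie on both sides.

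Eye by eye within each animal, the 6 genes that rose did so without exception. Cntf, Il6st, Osmr, Stat3, Socs3 and Cebpd were higher in the crushed eye of 13 of 13 mice. For Il6st, Osmr, Stat3 and Cebpd, and for Cntf in vehicle mice, this adds nothing to the lack of overlap given above. Where groups do not overlap, any pairing of eyes gives that count. Only for Socs3, and for Cntf in RGFP966 mice, could the pairs have come out otherwise. Even there the genes had already passed the crush test on the same libraries, so these counts are no separate evidence. Lif was higher in 11 of 13, Lifr in 9 and Clcf1 in 7. Of these 6 genes the median within-mouse ratio over the 13 mice was 2.68 for Cebpd, 2.43 for Osmr, 2.28 for Socs3, 2.26 for Stat3, 1.98 for Cntf and 1.53 for Il6st.

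Set against exon length, the order of transcript levels shifted with crush. In vehicle CTRL the mean normalized count per kilobase of annotated exon was 233 for Jak2, 183 for Lifr, 174 for Il6st and 128 for Stat3. It was 61.9 for Cntf, 36.8 for Cebpd, 30.2 for Socs3, 17.2 for Clcf1, 13.2 for Osmr and 3.24 for Lif. In vehicle ONC Stat3 stood at 274 and Il6st at 262, both above Jak2 at 216 and Lifr at 198. Cebpd reached 121, next to Cntf at 106, and Osmr at 30.8 passed Clcf1 at 20.9. Lif remained last at 10.5. RGFP966 ONC showed Stat3 first again at 282, ahead of Il6st at 240. These are means per length of all annotated exons, not of the isoforms in use, and neighbours in the order were not tested against each other.

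The genes sit on 5 chromosomes, with positions in build mm10. Lif (chr11:4257557-4272514), Stat3 (chr11:100885098-100939540) and Socs3 (chr11:117966079-117970047) share chromosome 11. Lifr (chr15:7090614-7197489) and Osmr (chr15:6813577-6874969) lie close together on chromosome 15, and Osmr rose where Lifr did not pass the threshold. Clcf1 (chr19:4214238-4223490) and Jak2 (chr19:29251828-29313080) are on chromosome 19 with Cntf. Il6st (chr13:112464070-112510086) and Cebpd (chr16:15887286-15891031) are the only ones of the set on theirs.

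RGFP966 did not shift any of the 10 genes past the threshold, in crushed or uncrushed eyes. In limma, 0 of 15773 genes passed in crushed eyes (0% called), 0 in uncrushed eyes (0%) and 0 in the drug by crush interaction (0%), the test of whether the crush response differed between treatments. An unadjusted p under 0.05 was reached by 403, 782 and 327 genes respectively. Of the 10 genes, 1 reached it in crushed eyes, Lifr, with a log2 difference of -0.18 ± 0.09 (RGFP966 minus vehicle, unadjusted p = 0.048). In uncrushed eyes 1 did, Cntf, at -0.36 ± 0.16 (unadjusted p = 0.0312). None did in the interaction. The fitted drug difference was below 0 for 8 of the 10 genes in crushed eyes. Its median there was -0.15, against -0.004 over all tested genes. Uncrushed eyes likewise had 8 of the 10 below 0, with a median of -0.11, against -0.0008 over all tested genes. For the interaction 5 genes were below 0 and 5 above. The 10 genes come from the same libraries, and these medians were not tested.

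The intervals show what differences these data leave room for. In crushed eyes the drug difference of Stat3 was 0.05 ± 0.08 on the log2 scale, with a 95% interval of -0.12 to 0.21. That of Il6st was -0.12 ± 0.08 (-0.29 to 0.04) and that of Osmr -0.08 ± 0.17 (-0.43 to 0.27). For Stat3 the crush response in RGFP966 mice minus that in vehicle mice was 0.13 ± 0.11 (-0.11 to 0.36), and for Cebpd it was -0.08 ± 0.27 (-0.64 to 0.48). Socs3 and Lif were measured less tightly. Socs3 in crushed eyes differed by -0.54 ± 0.33 (-1.22 to 0.15). Lif differed by -0.27 ± 0.61 (-1.53 to 0.99) in crushed and by 0.51 ± 0.61 (-0.75 to 1.76) in uncrushed eyes, and the latter became -0.01 without the 2 libraries rich in lens transcripts. Its interaction was -0.78 ± 0.87 (-2.55 to 0.998), an interval that holds both a much weaker and a stronger Lif response. These wide intervals do not show that drug and vehicle acted alike on Lif and Socs3.

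**Figure D3:**
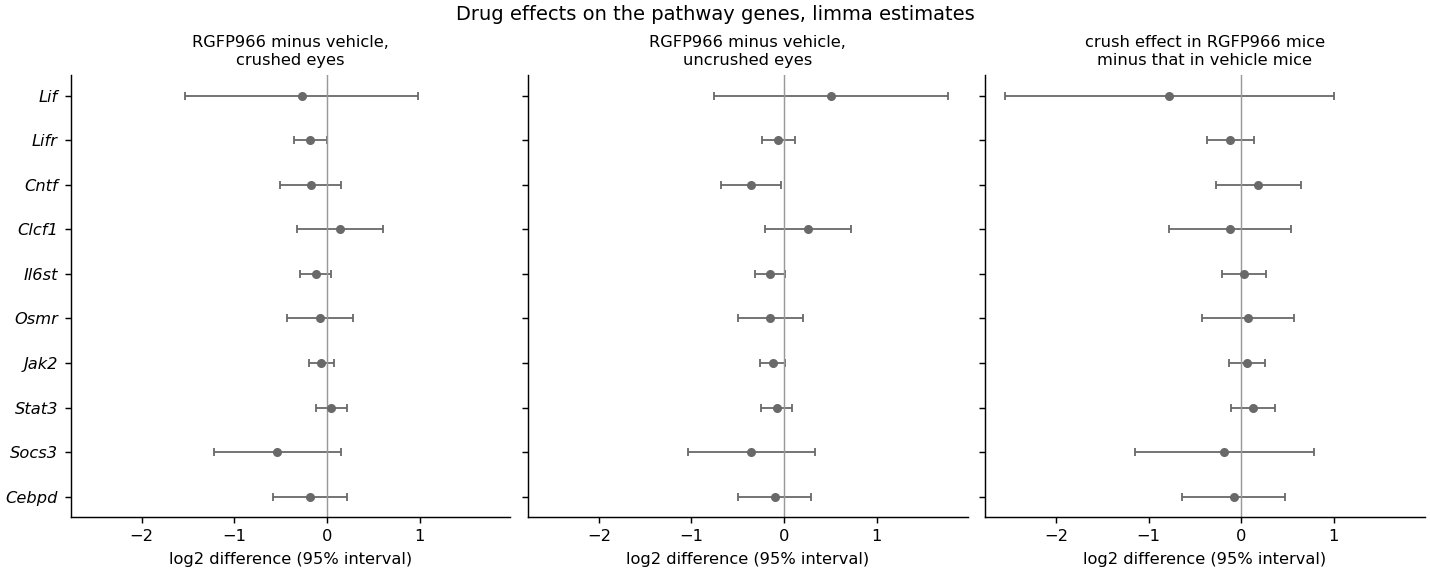
Estimated log2 differences (horizontal axis, points) with 95% intervals from limma (bars) for each gene: RGFP966 minus vehicle in crushed eyes, in uncrushed eyes, and the crush effect in RGFP966 mice minus that in vehicle mice. Intervals are narrow for Jak2, Il6st, Stat3 and Lifr and wide for Lif and Socs3; the intervals of Lifr in crushed eyes and Cntf in uncrushed eyes end just below 0 before adjustment for multiple tests.

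The sexes were compared because both were present in each group. In a model with sex by crush terms, the same 6 genes rose in males, where 4.18% of all tested genes rose, and in females, where 2.75% did. Lif also rose in males, by 1.92 ± 0.54 on the log2 scale (limma adjusted p = 0.0296). In females its change was 0.56 ± 0.70 (adjusted p = 0.830), and the uncrushed values above 40 all came from females: 44.9, 68.9 and 70.6. The difference between the sexes was 1.36 ± 0.88 (95% interval -0.46 to 3.19, unadjusted p = 0.136, adjusted p = 1). No gene passed in this interaction (0% of 15773, with 382 at an unadjusted p under 0.05). A sex difference in the Lif response was thus not shown.

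Other genes of the pathway were counted from lists of related genes. These lists were chosen with earlier results of these data known, so their counts are descriptions and no independent evidence. Of the other ligands, 4 of 10 could be tested and none rose or fell in either treatment (0 of 4). Il6 was listed at 0 in 20 of 26 libraries and Osm, the ligand of the chain encoded by Osmr, in 16 of 26, with a highest value of 5.07. The Osm zeros were not spread evenly over the groups. Its mean was 0 in vehicle CTRL and 1.46 ± 1.99 in vehicle ONC (SD, n = 6 each). With RGFP966 it was 0.28 ± 0.75 in uncrushed and 2.03 ± 1.01 in crushed retinas (SD, n = 7 each). Osm lay under the minimum mean, so this difference was not tested. Among those tested were Ctf2, which encodes a cardiotrophin (log2 change in vehicle mice 0.41 ± 0.28), and Ctf1, its relative (0.13 ± 0.22). Crlf2, the receptor chain for thymic stromal lymphopoietin and no ligand, had been put on this list and is counted in it (0.31 ± 0.13, limma adjusted p = 0.231).

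Of the other receptor genes 1 of 4 tested rose, Il6ra, which encodes the interleukin 6 receptor. Its level went from 46.6 ± 13.2 to 126 ± 46.5 (SD, n = 6 each) in vehicle mice (log2 1.38 ± 0.22, limma adjusted p = 9.30e-05). In RGFP966 mice its log2 change was 1.17 ± 0.20 (adjusted p = 2.91e-04). Cntfr, the binding chain for CNTF, had a log2 change of 0.25 ± 0.12 in vehicle mice (adjusted p = 0.294) and -0.02 ± 0.11 in RGFP966 mice, and Il11ra1 and Il31ra did not pass either.

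Among the other Janus kinases and STATs, Jak3, a kinase best known from blood cells, rose in vehicle and RGFP966 mice by 1.71 ± 0.18 and 1.73 ± 0.17 on the log2 scale. Stat5a passed the threshold in RGFP966 mice (0.62 ± 0.18, limma adjusted p = 0.0472, against -0.07 ± 0.20 in vehicle mice). Its interaction did not pass (0.69 ± 0.27, adjusted p = 0.9996), and the level in uncrushed RGFP966 eyes, 52.3 ± 9.21 (SD, n = 7), was the lowest of the 4 groups. The kinase Jak1, the partner of gp130, stayed between group means of 2394 and 2672 with log2 changes of -0.06 ± 0.07 and -0.05 ± 0.07.

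Of 15 further inhibitors 1 rose in each treatment, Ptpn6, which encodes the phosphatase SHP-1 (log2 1.06 ± 0.21 and 1.32 ± 0.19). With 3.69% and 3.34% of all tested genes rising, 1 of 15 does not set the inhibitors apart. None of the other SOCS genes tested, Socs1, Socs2 and Socs4 to Socs7, passed the threshold. Socs1 was scarce, with a mean of 9.15 ± 4.56 in vehicle CTRL (SD, n = 6).

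Of the known STAT3 targets and acute-phase genes, 16 of 29 tested rose in vehicle mice and 14 of 29 in RGFP966 mice, and none fell. Of all tested genes 3.69% and 3.34% rose, and fewer fell. As the list was drawn up with earlier results of these data known, its counts do not show that STAT3 was active. Their median log2 change was 0.78 and 0.66, against -0.01 over all genes in both. Gfap, the intermediate filament of reactive glia, went from 239 ± 79.1 to 1500 ± 383 (SD, n = 6 each) in vehicle mice (log2 2.68 ± 0.20, limma adjusted p = 5.64e-10) and rose by 2.04 ± 0.19 in RGFP966 mice. Bcl3, an atypical I kappa B protein, rose by 4.13 ± 0.54 and 2.61 ± 0.50. Junb, a subunit of the AP-1 transcription factor, rose by 1.003 ± 0.13 and 0.73 ± 0.12, and the metallothionein Mt1 by 0.78 ± 0.11 and 0.82 ± 0.10. No gene of any of these lists passed in a drug comparison or in the interaction.

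In a short list of genes tied to Müller glia and photoreceptor protection, 2 of 4 rose in each treatment. Edn2, which encodes endothelin 2 and is known to be induced in injured mouse photoreceptors, went from 139 ± 53.9 to 1744 ± 396 (SD, n = 6 each) in vehicle mice (log2 3.71 ± 0.29, limma adjusted p = 6.53e-10). It rose by 3.28 ± 0.27 in RGFP966 mice. Fgf2, a growth factor that protects photoreceptors, rose by 2.16 ± 0.12 and 1.84 ± 0.11. Ednrb, an endothelin receptor, and Bdnf did not pass.

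**Figure D4:**
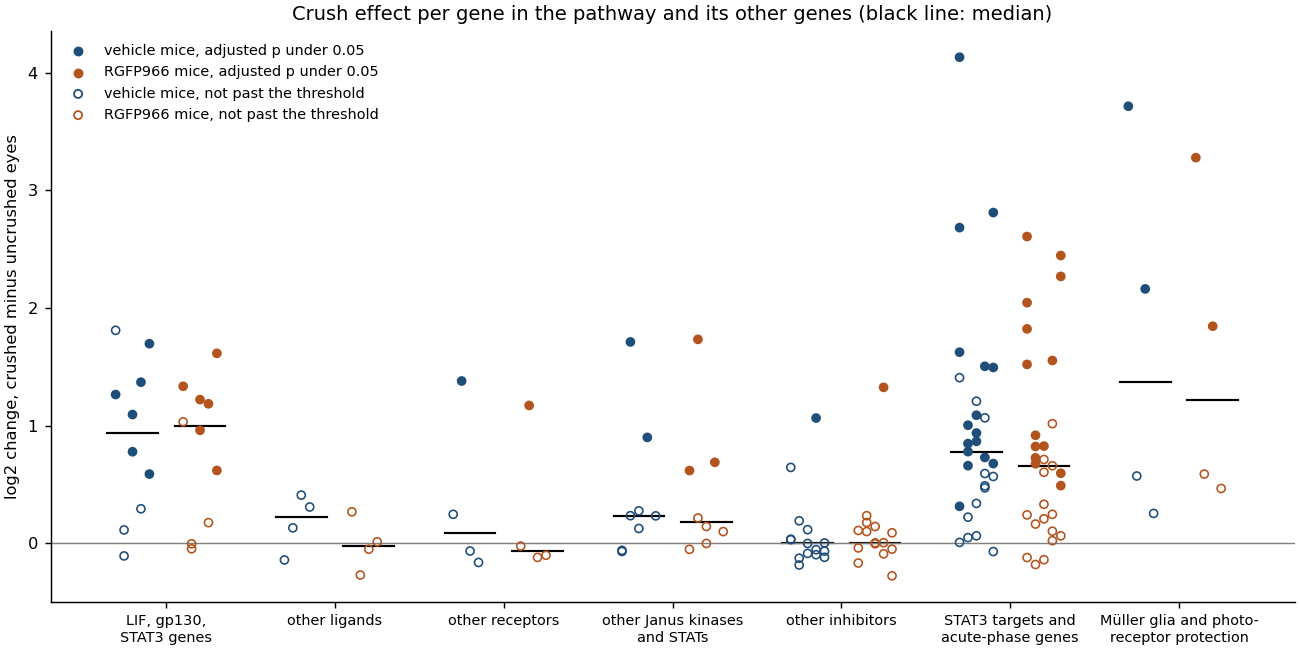
Log2 change with crush (vertical axis) of the 10 genes and of each tested gene in 6 lists of related genes; blue is vehicle and orange RGFP966, filled points have a limma adjusted p under 0.05, open points do not, and black lines are medians. Filled points stand on the positive side in every list that has them, and the list of other ligands has none.

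Markers of glia, immune cells and rods moved with the same contrast. Of 11 microglia markers 10 rose in both treatments, and their summed level went from 1921 to 3341 in vehicle CTRL to 5819 to 10389 in vehicle ONC, and from 2291 to 2934 to 5211 to 9683 with RGFP966. Ptprc, a marker of all leukocytes, rose as 1 of 5 tested markers of other leukocytes, while Cd8a and Ms4a1, markers of T and B lymphocytes, did not. Ly6c2 and Ccr2 did not pass either. Cd3e, S100a8 and S100a9 lay under the minimum mean and were not tested. S100a8 went from 0.17 ± 0.41 to 15.8 ± 35.9 and S100a9 from 1.74 ± 1.51 to 17.6 ± 36.2 in vehicle mice (SD, n = 6 each). With RGFP966 the means went from 0.29 to 6.88 and from 1.32 to 5.63. Cd3e had lower means after crush in both treatments. Müller glia markers moved less, with a median log2 change of 0.50 in vehicle mice against 1.70 for microglia. In vehicle mice 6 of 12 rose and Glul fell, with summed levels of 76931 to 90682 in CTRL and 75981 to 103986 in ONC. Glul, the most abundant of them, weighs most in these sums, with means of 45281 in vehicle CTRL and 33502 in vehicle ONC. The sums thus hide rises such as those of Clu (log2 1.15 ± 0.13) and Apoe (0.86 ± 0.14). In RGFP966 mice 4 of 12 rose and 1 fell, with sums of 75678 to 88665 and 73712 to 107648. Of 4 astrocyte markers 2 rose in vehicle and 1 in RGFP966 mice, with sums of 439 to 737 and 665 to 1091 in vehicle CTRL and ONC, and 492 to 657 and 568 to 852 with RGFP966. Of 6 rod markers 3 fell on the deposited scale in vehicle mice, Pde6g (log2 -0.36 ± 0.09), Pde6b (-0.30 ± 0.07) and Nrl (-0.35 ± 0.10), and in RGFP966 mice Pde6g and Nrl fell. The summed rod level ran from 1490290 to 2312142 in vehicle CTRL and from 1126705 to 1520211 in vehicle ONC, and from 1376695 to 1662549 and 1045790 to 1590553 with RGFP966. The part of these cell types in the rise of Cntf, Il6st, Osmr, Stat3, Socs3 and Cebpd was not tested.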

How the data were processed

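Per the submitters' processing notes, transcripts of mm10 were quantified with kallisto 0.46.1 and scaled with DESeq2. The deposited signal values, described by the authors as normalized counts, were used as they stand. Neither the labels nor these notes give the version of the scaling tool, the annotation, trimming or use of strand. Between 45.4 and 64.1% of values up to 20 reads lay within 0.05 of whole reads, so reads could not be recovered and no count test was run. A repeated column name left 2 of 28 columns unused, and 26 gene entries turned into dates (0.115% of the total) were dropped.

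Values were transformed as log2(value + 1), which understates fold changes of low genes. Fold changes are on that scale. Genes with a mean of at least 10 were fitted with limma 3.58.1 (R 4.3.3): 4 groups plus sex, trended empirical Bayes, two-sided tests, Benjamini-Hochberg adjustment over 15773 genes, threshold 0.05. The script was tested on simulated data. A further model of 8 drug, eye and sex groups gave the sex by crush terms. The eyes of 1 animal form a pair by the labels. Deviations of paired eyes from fitted group and sex means correlated between -0.30 and 0.21 (median -0.03, over 0.1 in 2 of 13 pairs). Fits with the mouse as a block were alternatives. Replicates are separate mice.

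Positions come from GENCODE vM21 and promoter sequences from RefSeq (GRCm38.p6). The 10 genes and the lists were chosen with earlier results of these data known. Of each list, up to 4 genes with the smallest p in the vehicle crush comparison and all passing genes where 5 or fewer passed were named; some genes that this rule names are not reported here. Remarks on other list genes, such as Il6, Osm and Jak1, were added after their values were seen. No member was under the minimum mean, so the exact test planned for such members was not needed.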

Additional observations from a re-analysis of the deposited data

Results flagged for a closer look

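In 3 of the 40 sets formed by the 10 genes and 4 groups, 1 library stood apart from the others by Dixon's test on untransformed normalized counts. Chance alone picks about 1 in 20 such sets if values are normally distributed, which was not checked. The test was not run on the log2 scale used for the fits, where high values stand out less. Lif in vehicle CTRL female C was 44.9, against 18.2 in the next library of its group. Stat3 in vehicle CTRL female A was 1413, against 1224 in the next. Socs3 in the same library was 179, against 88.1 in the next. Vehicle CTRL female A is also 1 of the 2 libraries rich in lens transcripts, with a lens marker sum of 7682. Without both of those libraries, the same number of the 10 genes passed the threshold for crush, 6 in vehicle and 6 in RGFP966 mice. The part of lens tissue in the Stat3 and Socs3 values of that library was not tested.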

How the results depend on the processing

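Each result was recomputed under 37 settings, of which 26 left out 1 library each and 1, leaving out the 2 lens-rich libraries, was added after seeing the data. Of 444 recomputed values of the 12 called results, 437 kept direction and call, 7 lost the call (all Socs3, with an adjusted p of 0.0515 to 0.0794) and none turned in sign. Of 1376 values of uncalled results 29 turned in sign and 2 became calls, both Lif in vehicle mice. Genes called for crush numbered 842 in vehicle and 737 in RGFP966 mice. They numbered 810 and 707 with the mouse as a random replicate block and 766 and 687 with the mouse as a fixed term, and the block changed no member's call but that of Lif. Rescaling to the same total gave 1075 and 884 calls, shifted the median of all genes by 0.12 in vehicle and 0.07 in RGFP966 mice, and raised the share of higher calls to 91.0 and 85.4%, against 582 of 842 and 527 of 737 as deposited. Under that setting the log2 values became 0.0073 (Jak2, vehicle crush), 0.069 (Lifr, RGFP966 crush), 0.026 (Jak2, RGFP966 crush) and -0.011 (Il6st, interaction). Quantile normalization turned Lifr in RGFP966 crush to 0.020. Without the lens-rich libraries Lifr in RGFP966 crush was 0.0064, Lif for the drug in uncrushed eyes -0.0051 and the Cebpd interaction 0.11, and 760 and 670 genes were called. With 1 library left out the log2 values ran from -0.044 to 0.028 (Lifr, RGFP966 crush), -0.0016 to 0.25 (Clcf1, RGFP966 crush), -0.75 to 0.054 (Lif, drug in crushed eyes), -0.018 to 0.11 (Stat3, same) and -0.29 to 0.026 (Osmr, drug in uncrushed eyes). For interactions they ran from -0.29 to 0.0056 (Clcf1), -0.028 to 0.065 (Il6st), -0.094 to 0.21 (Osmr) and -0.18 to 0.078 (Cebpd). A fit to only the groups compared could not give the interaction, nor a fixed mouse term the drug comparisons. The causes were not tested. Lif had the lowest group medians of the 10 genes, 7.02 to 42.1.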

Other observations

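Apart from the group differences, the 10 genes varied together only loosely. Over the 26 libraries, the correlation of deviations from group means was highest for Il6st with Jak2 (Pearson r = 0.71), followed by Lifr with Stat3 (0.53), and lowest for Lif with Socs3 (-0.43). All libraries share the authors' scaling, so these values are descriptions. By the same measure, the genes most like Stat3 were R3hdm4 (0.77) and Mroh8 (0.71), those most like Osmr were Taf6 (0.74) and Cep135 (0.71), and those most like Socs3 were Was (0.67) and Tmem63b (0.66). For Cebpd they were Zfp239 (0.70) and Ddx39b (0.69), with Edn2 next (0.67). Of these genes Edn2, as described above, rose with crush. The genes named had the highest r in a search over the tested genes, and no p was computed. Such a search can return high values among unrelated genes, and shared regulation was not tested. Clcf1 overlaps an annotated gene on its own strand that was at 0 in every library.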
